A study of Mus musculus with 15 samples.

Results

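The genes described here are 35 named type I interferon stimulated genes, followed in mouse whole hearts after aldosterone. Each gene was represented by 1 probe set, the one with the highest mean signal among those whose only annotated symbol is that gene, and 33 of the 35 genes had such a probe set, out of 18194 genes on the array. Isg15 was not used because its probe set carries several symbols, and Ifi44 was not analysed here. A probe set was tested if its mean deposited signal over the 15 arrays reached 526.7, the median of all signals. This left 30 members and 22286 probe sets in all, and Mx1, Mx2 and Dhx58 fell below that level.

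The aldosterone arm had 1 array at each of 0.5, 1, 2, 3, 4, 5 and 12 h after treatment with aldosterone, the adrenal mineralocorticoid. The control arm had 1 array at each of the same 7 times, and 1 further control array at 0 h came from a heart without an injection, called the uninjected array here. The labels give neither the dose, nor the strain, age or sex of the mice, nor what the timed controls received. Whether 1 heart or pooled hearts went onto an array is not stated in them, and p-values here describe the variation among arrays, part of which can be technical. Levels are log2 of the deposited signal plus 167.8, after quantile normalization, and a difference or slope on this scale understates the change of a weakly expressed gene.

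Type I interferons signal through the receptor pair IFNAR1 and IFNAR2 and the kinases JAK1 and TYK2, which lead to the transcription factor complex ISGF3, holding STAT2 and IRF9. ISGF3 binds the interferon stimulated response element (ISRE) in the promoters of its target genes. Their products form much of the antiviral state of a cell: they bind or degrade foreign RNA, alter nucleotide pools and modify proteins with the ubiquitin-like protein ISG15, and they include sensors and factors that feed back on the pathway. In the heart they can be induced in cardiomyocytes, endothelial cells and macrophages, among other cells. In whole-heart RNA, more cells of a type and more RNA per cell cannot be told apart.

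Promoters are shown for the members whose sequence upstream of the gene start holds the core of the response element, because that is the sequence through which ISGF3 is known to act. RefSeq promoters of build GRCm38.p6 were found for 26 of the 35 listed genes. Over the window from 250 bases before to 50 bases after the gene start, the ISRE core, which is GAAA, then 2 bases of any kind, then GAAA, was searched on both strands. It was present for 9 of these 26 genes (34.6%), against 3.99% of the 27025 genes with a promoter in the table. The 9 genes were Bst2, Eif2ak2, Ifih1, Ifit1, Ifit3, Isg15, Oas1a, Rsad2 and Stat2. A second element, the STAT dimer site GAS (TTCNNNGAA), was present for 8 of 26 (30.8%), against 9.55% of all genes, and it overlapped an ISRE core in 1 member promoter, that of Bst2. The letters of the hormone response element of the glucocorticoid and mineralocorticoid receptors (GNACA and TGTNC with 3 bases between) were found in none of the 26, against 0.537% of all genes. These are matches of letters in a fixed window and not measured binding sites.

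The 6 tested members with an ISRE core before the gene start are printed 5′ to 3′ along the strand of the gene. Each line holds the 250 bases that end just before the start, and the capitals mark the ISRE core, read as TTTC, 2 bases, TTTC where it lies on the opposite strand. The positions are chr19:34583279-34583528 (plus strand) for Ifit3, chr5:120907526-120907775 (minus strand) for Oas1a, chr19:34640639-34640888 (plus strand) for Ifit1, chr12:26456453-26456702 (minus strand) for Rsad2, chr8:71537473-71537722 (minus strand) for Bst2 and chr10:128270248-128270497 (plus strand) for Stat2.
Ifit3: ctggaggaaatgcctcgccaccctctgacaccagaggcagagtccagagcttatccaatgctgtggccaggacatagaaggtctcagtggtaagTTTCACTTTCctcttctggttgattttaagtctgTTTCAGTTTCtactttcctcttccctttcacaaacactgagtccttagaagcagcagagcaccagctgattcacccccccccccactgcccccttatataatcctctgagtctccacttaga
Oas1a: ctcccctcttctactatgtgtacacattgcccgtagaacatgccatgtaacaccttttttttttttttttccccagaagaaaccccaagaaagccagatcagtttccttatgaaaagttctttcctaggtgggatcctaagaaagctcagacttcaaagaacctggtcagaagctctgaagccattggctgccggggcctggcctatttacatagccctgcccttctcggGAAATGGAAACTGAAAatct
Ifit1: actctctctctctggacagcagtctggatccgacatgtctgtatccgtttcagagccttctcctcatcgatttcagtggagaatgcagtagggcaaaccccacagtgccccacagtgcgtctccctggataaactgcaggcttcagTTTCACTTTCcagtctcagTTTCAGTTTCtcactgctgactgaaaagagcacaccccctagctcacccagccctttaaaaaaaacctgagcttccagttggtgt
Rsad2: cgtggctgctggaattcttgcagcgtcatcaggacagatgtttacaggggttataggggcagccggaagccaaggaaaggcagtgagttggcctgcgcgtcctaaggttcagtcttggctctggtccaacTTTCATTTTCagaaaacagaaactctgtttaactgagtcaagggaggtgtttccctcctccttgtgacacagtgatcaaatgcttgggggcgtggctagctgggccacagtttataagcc
Bst2: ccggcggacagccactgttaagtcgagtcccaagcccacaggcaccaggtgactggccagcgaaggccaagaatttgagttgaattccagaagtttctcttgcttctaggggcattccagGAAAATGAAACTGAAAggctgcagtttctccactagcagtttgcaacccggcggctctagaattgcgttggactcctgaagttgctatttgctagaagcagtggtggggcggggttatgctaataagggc
Stat2: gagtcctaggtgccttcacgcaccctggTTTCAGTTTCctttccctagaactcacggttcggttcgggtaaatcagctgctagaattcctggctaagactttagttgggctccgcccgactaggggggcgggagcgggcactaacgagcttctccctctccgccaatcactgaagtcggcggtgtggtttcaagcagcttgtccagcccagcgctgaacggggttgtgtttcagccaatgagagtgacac
Ifit3 and Ifit1 each hold 2 separate matches, and Oas1a and Bst2 each hold 2 overlapping ones. The matches of Oas1a begin 20 and 14 bases before the gene start, nearer than those of the other members shown. Those of Ifit1 begin 104 and 85 bases before it, and that of Stat2 begins 222 bases before it.

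The median deposited signal of an array lay between 413.8 and 741.4, and the number of arrays limits the precision of every value. Marker sums here are of signals after quantile normalization. All 8 cardiomyocyte markers were tested, and they summed to 1947800 to 2035300 with aldosterone and to 1983600 to 2051600 in control. Quantile normalization makes the highest signals of the arrays alike, so these sums cannot show whether the arrays differed. The arrays were scanned on 3 days, and both arms of a time always shared their day. The 0.5 and 3 h arrays were scanned on day 1, those of 1, 4 and 12 h on day 2, and on day 3 those of 2 and 5 h together with the uninjected one. The 0.5 and 3 h arrays were of chip lot 1 and all the others of lot 2. The signal of 5 lung epithelium markers summed to 384330 with aldosterone and 175350 in control at 1 h, and to at most 4764 on any other array, so the 1 h hearts stand apart. The 4 atrial markers, all tested, summed to 68548 to 445610 with aldosterone, 51146 to 484170 in control and 546420 on the uninjected array. The hearts thus differed in atrial signal too, and its part in the members' levels was not tested. The log2 ratio of the 3′ to the 5′ Gapdh probe sets, a measure of RNA or cRNA integrity, ran from -0.23 to 3.92.

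Across the 14 timed arrays the members as a group were low in the first 2 h and higher later. On these single arrays most members first lay above their own mean at 3 h in control and at 4 h with aldosterone. With 1 array per arm and time, this difference in hour has no replicate. The median member, relative to its own mean over the timed arrays, stood at -0.39, -0.22, -0.19, -0.18, 0.18, 0.50 and 0.43 in the aldosterone arm at 0.5, 1, 2, 3, 4, 5 and 12 h. In the control arm it stood at -0.47, -0.28, -0.14, 0.32, 0.35, 0.17 and 0.01 at the same times, and at -0.43 on the uninjected array. In the aldosterone arm 4 of 30 members lay above their own mean at 3 h, then 21, 27 and 27 at 4, 5 and 12 h. In the control arm 26 already did at 3 h, then 23, 26 and 16. The same median over all 22286 tested probe sets stayed between -0.03 and 0.05 on every array.

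**Figure D1:**
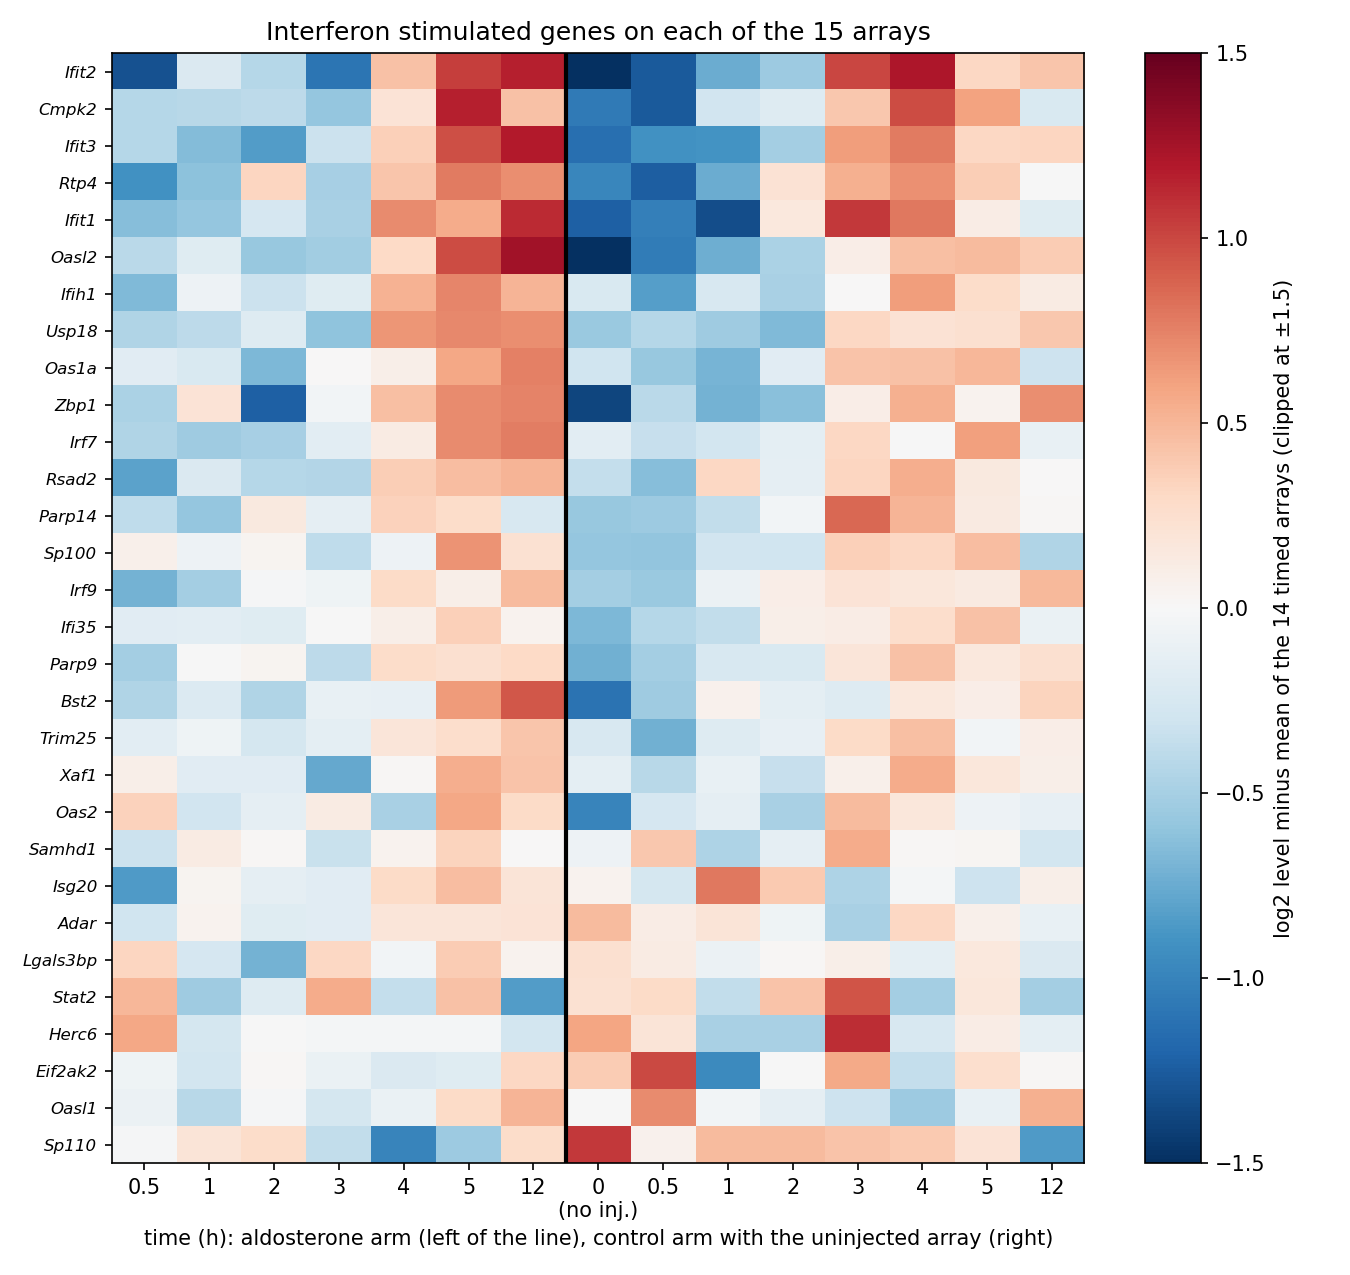
Log2 level of each of the 30 tested members (rows, ordered by slope from 0.5 to 5 h) minus its mean over the 14 timed arrays, on each of the 15 arrays (columns, time in h), with red for higher and blue for lower. The aldosterone columns change from mostly blue to mostly red between 3 and 4 h, and the control columns between 2 and 3 h; in the aldosterone column at 3 h only 4 members lie above their mean.

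Among the IFIT genes, which encode proteins that bind foreign RNA, the levels of all 3 tested members were lowest in the first hour or on the uninjected array. Ifit2 read 9.59, 10.67, 10.47, 9.80, 11.33, 11.94 and 12.06 in the aldosterone arm at 0.5, 1, 2, 3, 4, 5 and 12 h. It read 9.63, 10.15, 10.35, 11.89, 12.10, 11.21 and 11.30 in the control arm at the same times, and 7.98 on the uninjected array. Its control level stood near 12 at 3 and 4 h, while its aldosterone level at 3 h was still close to that at 0.5 h.

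Ifit1, listed in the same order of times, read 10.52, 10.58, 10.90, 10.67, 11.87, 11.72 and 12.28 with aldosterone. Control hearts gave 10.13, 9.83, 11.32, 12.22, 11.95, 11.28 and 10.98, and the uninjected heart 9.94. The 2 highest values of Ifit1 were the aldosterone array at 12 h and the control array at 3 h. Ifit3 read 11.06, 10.84, 10.65, 11.16, 11.85, 12.46 and 12.68 with aldosterone. Control hearts gave 10.58, 10.60, 10.98, 12.12, 12.26, 11.79 and 11.81 and the uninjected heart 10.35. For Ifit3 every array of 3 to 5 h, in either arm, lay above every array of 0.5 to 2 h.

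**Figure D2:**
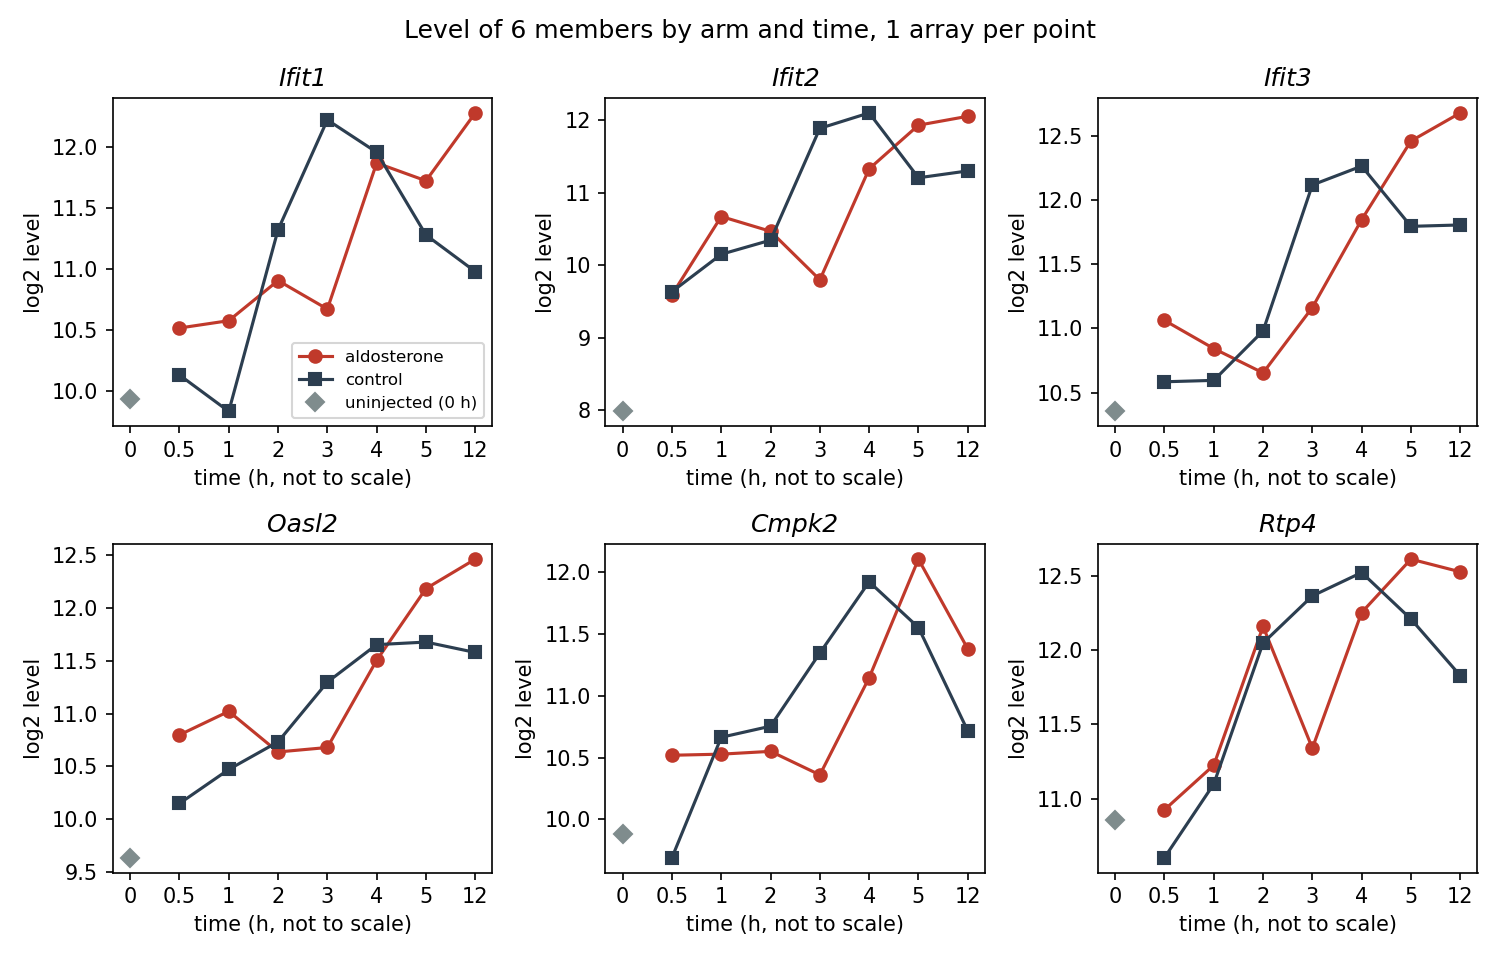
Log2 level (vertical axes) of 6 members at each time (horizontal axis in h, not to scale), 1 array per point, with the aldosterone arm in red circles, the control arm in dark squares and the uninjected array as a grey diamond. In each panel the red point at 3 h lies below the dark one and the red point at 12 h lies above it.

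The transcription factors of the list are Irf7, which amplifies interferon production, and Irf9 and Stat2, the parts of ISGF3 measured here. Irf7 read 10.65, 10.57, 10.60, 10.94, 11.23, 11.81 and 11.87 with aldosterone, against 10.76, 10.83, 10.96, 11.41, 11.10, 11.72 and 10.99 in control and 10.95 without an injection. Irf9 read 10.33, 10.52, 11.02, 10.98, 11.33, 11.12 and 11.51 with aldosterone, against 10.48, 10.95, 11.14, 11.25, 11.21, 11.18 and 11.53 in control. Both had their lowest values at 0.5 or 1 h in each arm. Stat2 followed no such order: its lowest mean of the arms was at 12 h (9.22) and its highest at 3 h (10.64).

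In the family of the oligoadenylate synthetases, which make the second messenger that activates the RNA-cutting enzyme RNase L, and of the related OASL proteins, Oasl2 had the widest span. Oasl2 read 10.80, 11.02, 10.64, 10.68, 11.50, 12.18 and 12.46 with aldosterone. Control hearts gave 10.15, 10.47, 10.73, 11.30, 11.65, 11.68 and 11.58, and the uninjected heart gave 9.64, below all 14 timed arrays. Oas1a read 11.26, 11.20, 10.75, 11.43, 11.51, 12.00 and 12.18 with aldosterone, against 10.85, 10.73, 11.25, 11.85, 11.87, 11.92 and 11.12 in control. Every 3 to 5 h array of Oas1a lay above every 0.5 to 2 h array, and its 12 h level was 12.18 with aldosterone and 11.12 in control. Oas2 ranged from 10.53 to 11.60 over the timed arrays and Oasl1 from 9.92 to 11.17, and the mean of the arms for Oasl1 was highest at 12 h and lowest at 4 h.

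The ISG15 system was represented by Usp18, the protease that removes ISG15 and restrains the interferon receptor, the ISG15 ligase gene Herc6 and the ubiquitin ligase gene Trim25. Usp18 read 10.38, 10.45, 10.64, 10.23, 11.50, 11.56 and 11.53 with aldosterone, against 10.42, 10.31, 10.18, 11.15, 11.06, 11.08 and 11.25 in control, so its aldosterone arrays split into 4 low and 3 high ones between 3 and 4 h. Trim25 read 11.52, 11.62, 11.43, 11.54, 11.87, 11.95 and 12.11 with aldosterone, against 10.97, 11.49, 11.57, 11.98, 12.14, 11.65 and 11.79 in control. Herc6 read 11.43 at 0.5 h with aldosterone and 11.96 at 3 h in control, and the other timed values lay between 10.36 and 11.05.

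Among the sensors and RNA-acting enzymes, Ifih1, which encodes the double-stranded RNA sensor MDA5, read 10.31, 10.89, 10.65, 10.79, 11.50, 11.71 and 11.49 with aldosterone. Control hearts gave 10.15, 10.73, 10.49, 10.98, 11.60, 11.25 and 11.10 and the uninjected heart 10.75. Zbp1, a sensor of left-handed nucleic acids, ranged from 8.23 to 10.19 over the timed arrays and was at its highest mean at 12 h. Eif2ak2, which encodes the kinase PKR, and Adar, the RNA-editing deaminase gene, followed other orders: Eif2ak2 had its highest mean at 0.5 h, and the Adar means, highest at 4 h and lowest at 3 h, spanned 1.49-fold.

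The nucleotide and nucleic acid enzymes held Cmpk2, a mitochondrial nucleotide kinase gene, and Rsad2, which encodes viperin. Cmpk2 read 10.52, 10.53, 10.55, 10.36, 11.15, 12.11 and 11.38 with aldosterone. Control hearts gave 9.69, 10.66, 10.75, 11.35, 11.92, 11.55 and 10.72 and the uninjected heart 9.88. Rsad2 read 11.95, 12.53, 12.32, 12.31, 13.11, 13.21 and 13.26 with aldosterone, against 12.11, 13.06, 12.62, 13.07, 13.29, 12.89 and 12.75 in control. Both were at their highest mean at 4 or 5 h, 3.31-fold over the lowest for Cmpk2 and 2.25-fold for Rsad2. The nucleotide hydrolase gene Samhd1 spanned 1.28-fold, the smallest span of the 30 members.

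Of the ADP-ribosyl transferase genes, Parp9 and Parp14 were at their highest mean of the arms at 4 h, 1.83-fold and 1.87-fold over the lowest. Of the nuclear body genes, Sp100 had its highest mean at 5 h, and Sp110 its lowest at 4 h. Among the other members, Rtp4, a chaperone gene for cell surface receptors, read 10.92, 11.22, 12.16, 11.34, 12.25, 12.61 and 12.53 with aldosterone. Control hearts gave 10.60, 11.10, 12.05, 12.37, 12.52, 12.21 and 11.83 and the uninjected heart 10.86. Its aldosterone value at 3 h lay between those at 1 and 2 h, while its control value at 3 h was above both. Bst2, which encodes the virus-tethering protein tetherin, read 10.94, 11.19, 10.94, 11.29, 11.27, 12.03 and 12.33 with aldosterone, against 10.86, 11.46, 11.25, 11.20, 11.55, 11.50 and 11.73 in control.

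The 3 members below the signal filter are given without a test. The antiviral GTPase gene Mx1 had deposited signals of 183 to 433 with aldosterone and of 58.8 to 547 in control. Mx2 had 108 to 855 with aldosterone and 57.8 to 200 in control, and its highest value, on the aldosterone array of 4 h, stood alone. Dhx58, which encodes the RNA sensor LGP2, had 78.8 to 590 with aldosterone and 360 to 620 in control. Laboratory strains of mice often carry broken Mx genes, and the strain used is not given.

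The first comparison the design allows is that of the arms over all 7 times, with time as a block. No member was called at an adjusted p under 0.05 (limma with Benjamini-Hochberg adjustment over all 22286 probe sets, smallest adjusted p 0.975), and 0% of all tested probe sets were called. At an unadjusted p under 0.05 there were 0 members of 30, against 4.43% of all probe sets. The difference was positive for 13 of 30 members, with a median of -0.01, against 0.01 over all probe sets. With median scaling it was positive for 23 of 30, with a median of 0.09, against 0.08 over all probe sets.

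The 5 members with the smallest p for the difference between the arms were Oasl2, Sp110, Ifih1, Irf9 and Parp14. The difference, aldosterone minus control, was 0.25 ± 0.17 for Oasl2 and -0.34 ± 0.24 for Sp110 (SE, 7 times). It was 0.15 ± 0.11 for Ifih1, -0.13 ± 0.10 for Irf9 and -0.16 ± 0.14 for Parp14. The 95% interval for Ifit3, whose difference was 0.08, ran from -0.34 to 0.50, which allows a change in either direction. No member was higher with aldosterone at all 7 times, against 0.933% of all probe sets, and none was lower at all 7, against 0.642%.

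Time by time, the members were split more evenly at 0.5, 1 and 2 h, most were lower with aldosterone at 3 and 4 h, and most were higher at 5 and 12 h. The share of members that were higher with aldosterone was 18 of 30 at 0.5 h, 16 at 1 h, 13 at 2 h, 5 at 3 h, 10 at 4 h, 25 at 5 h and 25 at 12 h. Over all probe sets the share was 50.9%, 51.4%, 54.8%, 48.9%, 49%, 51.5% and 50.5% at these times. The median difference of the members was 0.17, 0.13, -0.11, -0.60, -0.15, 0.31 and 0.33 in the same order, and that of all probe sets lay between -0.01 and 0.05. Each time has 1 array per arm, so none of these differences has a replicate or a test.

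**Figure D3:**
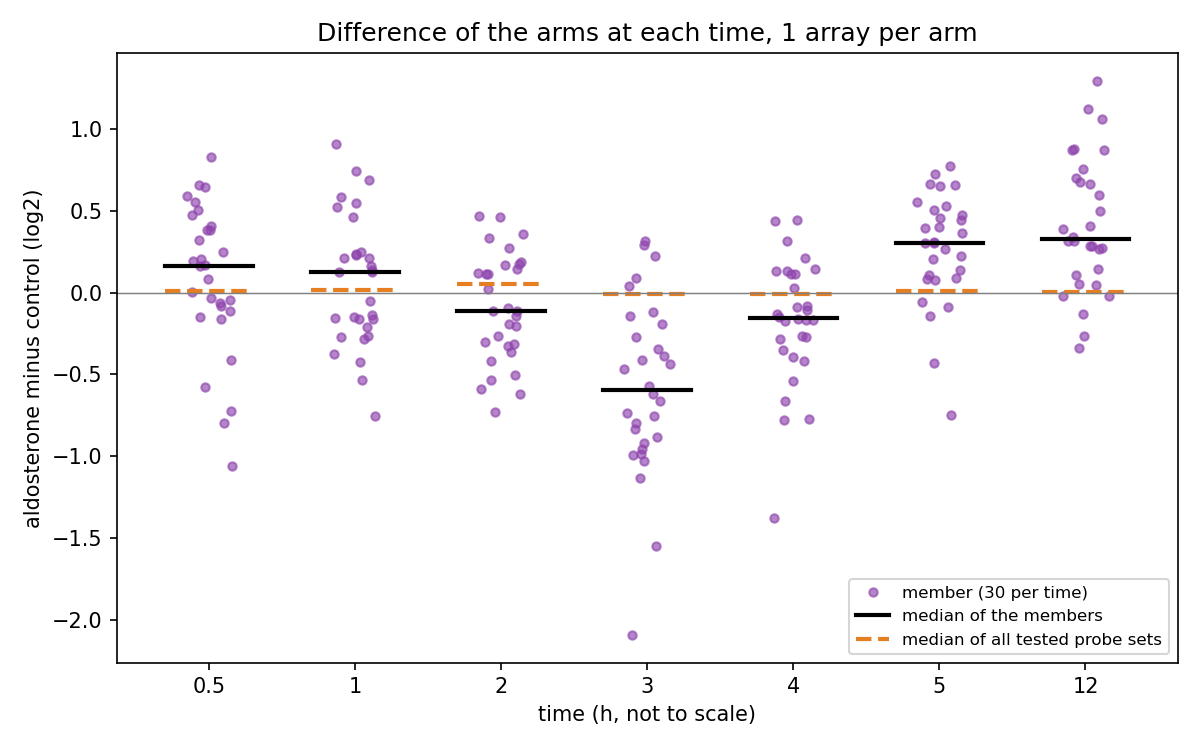
Difference aldosterone minus control in log2 level (vertical axis) at each time (horizontal axis in h, not to scale) for the 30 tested members (points), with their median (black bar) and the median of all tested probe sets (dashed orange bar). The members' median is -0.60 at 3 h, and 0.31 and 0.33 at 5 and 12 h, while the median of all probe sets lies between -0.01 and 0.05.

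The 3 h pair held the largest single difference of a member's main probe set, that of Ifit2. Over 2-fold lower with aldosterone at 3 h were Ifit2 (-2.09), Ifit1 (-1.55), Herc6 (-1.13) and Rtp4 (-1.03), which is 4 of 30 members, against 1.52% of all probe sets. The next were Parp14 (-0.99), Cmpk2 (-0.99), Ifit3 (-0.95) and Usp18 (-0.92). The 5 members that were higher with aldosterone at 3 h, by at most 0.32, were Adar, Isg20, Lgals3bp, Bst2 and Oasl1. Of 17 tested further probe sets of the members, 14 were lower and 3 higher with aldosterone at 3 h. They ranged from -1.60 for Stat2 to 0.62 for a probe set of Samhd1, with a median of -0.40. The further Adar probe set was at -0.84, opposite to the 0.32 of the main one.

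At 12 h most members lay the other way. Over 2-fold higher with aldosterone were Ifit1 (1.30), Sp110 (1.12) and Oas1a (1.07), which is 3 of 30 members, against 3.54% of all probe sets. Irf7 and Oasl2 differed by 0.88 each, Ifit3 by 0.87, Ifit2 by 0.76 and Rtp4 by 0.70. The 5 members that were lower with aldosterone at 12 h, by at most 0.34, were Stat2, Parp14, Herc6, Oasl1 and Irf9. The further probe sets were split at 12 h, with 9 of 17 higher and 8 lower with aldosterone (median 0.28, from -0.93 for Xaf1 to 2.22 for Stat2). They lay opposite to the main probe set for Rsad2 (-0.12 and -0.22, beside 0.50 for the main one), Xaf1 (-0.93, beside 0.34) and Stat2 (2.22, beside -0.34), among others.

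The 10 macrophage markers, all tested, summed to 54773 with aldosterone and 43405 in control at 3 h. The sums were 60442 and 47938 at 4 h, 50686 and 41818 at 5 h, and 54062 and 62595 at 12 h, aldosterone first. This order was that of most members at 5 h and the opposite at 3, 4 and 12 h. The markers' part in the members' levels was not tested. Over the 7 times the macrophage sums ran from 49513 to 84903 with aldosterone and from 41818 to 62595 in control. The 84903 was on the 1 h array, where the lung markers also summed highest. For 9 of the 10 macrophage markers the difference between the arms was positive (median 0.19, 0 called). An unadjusted p under 0.05 was found for 3 of the 10, against 4.43% of all probe sets. They were Adgre1 (0.30), Lyz2 (0.31) and C1qc (0.28), with unadjusted p of 0.0135, 0.0197 and 0.0282 by limma (adjusted p = 0.975 for each). The Gapdh log2 ratio of aldosterone minus control was -0.06, 2.54 and 3.00 at 0.5, 1 and 2 h. It was -0.66, -1.04, 0.81 and -1.43 at 3, 4, 5 and 12 h, and its part in the differences was not tested for single pairs. The station recorded for the arrays differed between the arms at 5 h, and the 5 h difference cannot be told apart from it.

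In windows of 3 times no member was called either (limma, adjusted p). At 0.5 to 2 h, 1 member of 30 had an unadjusted p under 0.05, against 10.2% of all probe sets, and 0% were called. It was Isg20, an RNA exonuclease gene, at -0.62 ± 0.16 (SE). At 3 to 5 h, 2 members did, against 3.3% of all probe sets (0% called), namely Sp110 at -0.97 ± 0.21 and Isg20 at 0.46 ± 0.16. The median member difference at 3 to 5 h was -0.16 with 8 of 30 positive. It was 0.05 with 18 positive without the 3 h pair, and -0.37 with 4 positive without the 5 h pair. At 0.5 to 2 h the median member difference was 0.10 with 19 of 30 positive. With the Gapdh ratio as a covariate this early median was -0.02 with 15 positive.

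The change of the arm difference from the first to the second window was tested too, and none of the 30 members or of all probe sets (0%) was called. The smallest p values belonged to Isg20 (1.08 ± 0.22), Sp110 (-0.79 ± 0.30) and Sp100 (-0.71 ± 0.29), with an adjusted p of 0.737 for all 3 by limma. These were the 3 members with an unadjusted p under 0.05, against 6.7% of all probe sets. The median change of the members was -0.26 with 10 of 30 positive, and -0.13 with 13 positive when the Gapdh ratio was a covariate. Isg20 read 10.38, 11.26, 11.08, 11.05, 11.50, 11.68 and 11.41 with aldosterone, against 10.95, 12.01, 11.61, 10.76, 11.19, 10.90 and 11.30 in control, so it was lower with aldosterone at each of 0.5, 1 and 2 h and higher at each of 3, 4 and 5 h. Sp110 read 10.08, 10.29, 10.38, 9.72, 9.11, 9.55 and 10.37 with aldosterone, against 10.16, 10.57, 10.57, 10.52, 10.49, 10.29 and 9.24 in control and 11.16 without an injection.

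The second question is how the members followed time, whichever the arm. The main test of this was a moderated F over the 7 times with the arm as a covariate, in which both arrays of a time count as separate. Ifih1 and Rtp4 passed it, with an adjusted p of 0.0301 and 0.0497 by limma. This is 2 of 30 members, against 1.92% of all probe sets. Ifih1 was lowest at 0.5 h (mean of the arms 10.23) and highest at 4 h (11.55), a span of 2.49-fold. Rtp4 was lowest at 0.5 h (10.76) and highest at 5 h (12.41), a span of 3.14-fold.

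Both calls were lost without the 0.5 h pair (adjusted p 0.15 for Ifih1 and 0.295 for Rtp4 by limma) and with the scan day as a block (0.0875 and 0.195). Next in order came Oasl2, Irf9 and Ifit3, with adjusted p of 0.0514, 0.0661 and 0.0689 (limma). At an unadjusted p under 0.05 there were 18 of 30 members, against 18.9% of all probe sets. The lowest mean of the arms was at 0.5 h for 13 of 30 members and at 1 h for 9. The highest was at 4 h for 8 members, at 5 h for 9 and at 12 h for 7. Over all probe sets 25.7% and 12.1% were lowest at 0.5 and 1 h, and 15.6%, 11.6% and 17.6% were highest at 4, 5 and 12 h.

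The trend from 0.5 to 5 h was fitted on the mean of both arms at each of 6 times, because the 2 arrays of a time share their hour and scan day. No member was called (limma, adjusted p), nor was any of all probe sets (0%). At an unadjusted p under 0.05, 19 of 30 members had a positive slope and none a negative one, against 3.37% of all probe sets with a positive slope and 2.31% with a negative one. The slope was positive for 27 of 30 members, with a median of 0.15 log2 per h, against 0.01 over all probe sets, of which 54.7% were positive. Earlier results of the same arrays had shown this direction, so it is given as a description.

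The 5 members with the smallest p for the trend were Cmpk2, Ifit2, Ifit3, Oasl2 and Rtp4. Cmpk2 had 0.36 ± 0.05 log2 per h (SE, 6 times; adjusted p = 0.184 by limma) and Ifit2 had 0.43 ± 0.07 (adjusted p = 0.199 by limma). Ifit3 had 0.36 ± 0.06, Oasl2 had 0.31 ± 0.05 and Rtp4 had 0.35 ± 0.07, with adjusted p from 0.199 to 0.404 (limma). The 3 IFIT genes lay between 0.35 and 0.43, the 4 synthetase family members between -0.04 and 0.31, and the 3 transcription factors between 0.02 and 0.22. Negative slopes were those of Sp110 (-0.11), Oasl1 (-0.04) and Eif2ak2 (-0.01), and the 2 further Eif2ak2 probe sets had positive ones (0.03 and 0.12).

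Each arm alone gave a similar median slope. In the aldosterone arm 27 of 30 slopes were positive, with a median of 0.18 log2 per h, and in the control arm 25 were, with a median of 0.17. None was called in either arm (limma; 0% of all probe sets in each). At an unadjusted p under 0.05, 16 members had a positive and 1 a negative slope in the aldosterone arm, against 1.88% and 1.34% of all probe sets. In the control arm 16 had a positive and 0 a negative one, against 3.94% and 3.63%. The slope was positive in both arms for 23 of 30 members, against 34.8% of all probe sets.

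In the aldosterone arm the smallest p values were those of Irf7 (0.26 ± 0.06), Ifih1 (0.27 ± 0.07), Ifit3 (0.34 ± 0.08), Ifit1 (0.30 ± 0.08) and Rtp4 (0.33 ± 0.09). In the control arm they were those of Oasl2 (0.36 ± 0.06), Cmpk2 (0.41 ± 0.08), Oas1a (0.29 ± 0.06), Ifit3 (0.37 ± 0.09) and Rtp4 (0.38 ± 0.09). The difference of the slopes between the arms was called for none of the members or of all probe sets (0%). It had an unadjusted p under 0.05 for 2 of 30, against 3.82% of all probe sets, which were Isg20 at 0.34 ± 0.07 and Oasl1 at 0.25 ± 0.07 (adjusted p = 0.999 for both by limma). Straight lines do not record the hour of a step, and the arms' similar slopes stand beside the opposite differences at 3 and 5 h.

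**Figure D4:**
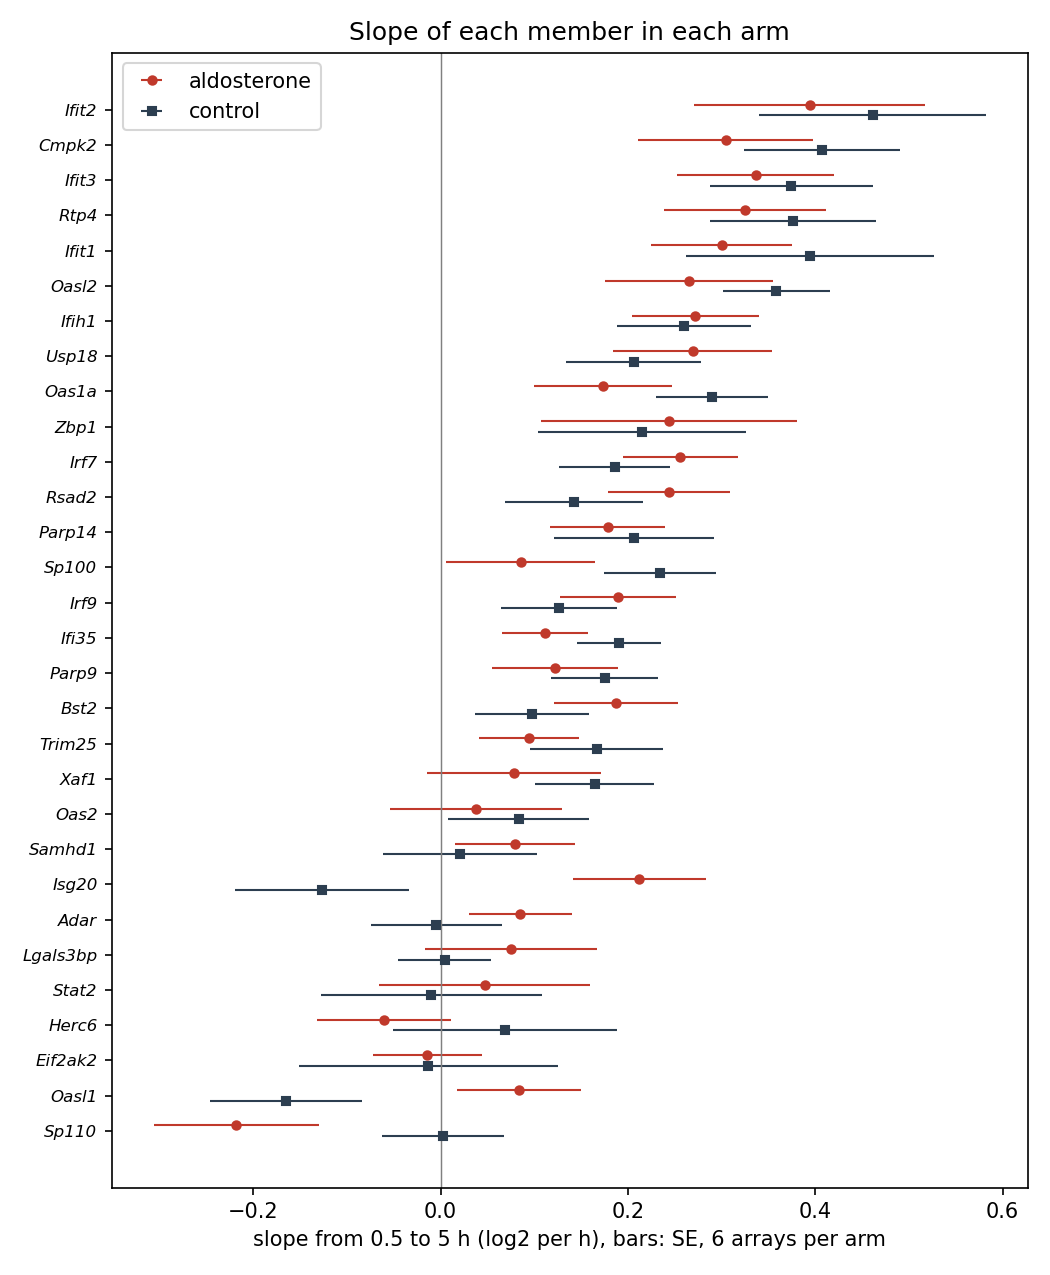
Slope of each of the 30 tested members from 0.5 to 5 h (horizontal axis, log2 per h, bars of 1 SE from 6 arrays per arm), for the aldosterone arm (red circles) and the control arm (dark squares), with members ordered from the highest to the lowest slope over both arms. Most points lie right of 0 in both arms, and the bars of the arms do not meet for Isg20, Oasl1, Sp110 and Sp100.

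The hour of the step differed between the arms in these single arrays. From 2 to 3 h the level was higher at the later time for 13 of 30 members with aldosterone (median step -0.03) and for 25 in control (median step 0.51). Over all probe sets this was so for 43.4% with aldosterone and 49.9% in control. From 3 to 4 h it was higher for 24 members with aldosterone (median 0.37) and for 16 in control (median 0.08). From 4 to 5 h it was higher for 25 with aldosterone (median 0.32) and for 12 in control (median -0.21). From 5 to 12 h it was higher for 16 with aldosterone (median 0.03) and for 10 in control (median -0.15). These steps cross scan days and have no replicate. Those from 2 to 3 h and from 3 to 4 h also cross chip lots and recorded stations in both arms. The station changed from 4 to 5 h in control and from 5 to 12 h with aldosterone as well.

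Comparisons within a scan day leave the day out of the difference: 3 against 0.5 h, 4 against 1 h and 5 against 2 h, in each arm. The later array was higher in all 6 of these pairs for 14 of 30 members, against 3.21% of all probe sets, and lower in all 6 for none, against 2.27%. The 14 were Ifit2, Ifit3, Irf7, Irf9, Oas1a, Rsad2, Ifi35, Ifih1, Parp9, Parp14, Trim25, Bst2, Zbp1 and Rtp4. The control arrays of 5 and 2 h had different recorded stations, while both arrays of each other pair shared one. In the 5 pairs of 1 station, a comparison added after the data were seen, the later array was higher in all for 15 of 30 members, against 4.94% of all probe sets. With aldosterone, 18, 26 and 27 of 30 members were higher at the later time of the 3, 4 and 5 h pairs, with medians of 0.11, 0.27 and 0.67. In control, 25, 25 and 26 were, with medians of 0.73, 0.62 and 0.32. The median of the aldosterone pairs was thus smallest at 3 h, where that of the control pairs was largest.

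The window of 3 to 5 h minus that of 0.5 to 2 h, on the means of both arms, was positive for 27 of 30 members with a median of 0.42, and none was called (limma; 0% of all probe sets). At an unadjusted p under 0.05 there were 17, all higher in the later window, against 2.11% of all probe sets. Ifit3 differed by 1.15 ± 0.16 (SE), or 2.23-fold, Ifit2 by 1.23 ± 0.29, Ifit1 by 1.07 ± 0.25, Oasl2 by 0.86 ± 0.23 and Oas1a by 0.76 ± 0.14. Ifit3 had an adjusted p of 0.746 (limma). Ifit3 and Oas1a were the 2 of 30 members whose 6 later arrays all lay above their 6 earlier ones, against 0.305% of all probe sets.

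Between 3 to 5 h and 12 h the members as a group did not move one way. The difference, 12 h minus 3 to 5 h, was positive for 17 of 30 members, with a median of 0.03, and none was called (limma; 0% of all probe sets). The median turned negative with the Gapdh ratio as a covariate (12 positive, median -0.13, against -0.02 over all probe sets). It did so with scan day as a block (12 positive, -0.05, against -0.01) and without the 3 h pair (12 positive, -0.06). With median scaling it was -0.04 with 13 positive, against -0.04 over all probe sets, of which 44% were positive. Oasl1 at 0.69 ± 0.28 was the 1 member with an unadjusted p under 0.05, against 4.92% of all probe sets. The next smallest p values were those of Bst2 (0.56 ± 0.26), Stat2 (-0.88 ± 0.47), Parp14 (-0.44 ± 0.25) and Oasl2 (0.52 ± 0.33). Both 12 h arrays lay above all 6 arrays of 0.5 to 2 h for 11 of 30 members, against 6.47% of all probe sets, namely Ifit2, Ifit3, Irf7, Irf9, Oasl2, Usp18, Ifih1, Parp9, Trim25, Bst2 and Zbp1.

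The uninjected array was low for many members but not for all. It lay below all 14 timed arrays for 8 of 30 members, against 15.6% of all probe sets, and above all 14 for 2, against 13.7%. The 8 were Ifit2, Ifit3, Oasl2, Oas2, Ifi35, Parp9, Bst2 and Zbp1. The 2 above all were Sp110 and Adar. The deposited signal of Ifit2 was 652 to 4308 on the timed arrays, against 133 on the uninjected one. This is 1 array with no replicate, and it differs from the timed controls in both injection and time, which cannot be told apart. Its atrial marker sum, 546420, also lay above that of every timed array, which was at most 484170.

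Further probe sets of the same genes were looked at as a second measure of the same RNA. Of 28 such probe sets 17 were tested, from 12 genes, and 15 of them had a positive slope from 0.5 to 5 h, 13 with the sign of the gene's main probe set. They differed for Herc6, whose main probe set had a slope of 0.004 while the other had 0.37 (adjusted p = 0.276 by limma). They differed also for Stat2, with 0.02 for the main probe set and 0.21 for the other. The sign was opposite for 4 of the 17, which were those of Xaf1 (-0.06, beside 0.12 for the main one), 1 of the Samhd1 probe sets (-0.04, beside 0.05) and the 2 of Eif2ak2. The 2 further Rsad2 probe sets had 0.18 and 0.20, beside 0.19 for the main one.

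Members with an ISRE core in the promoter window and those without were compared as a description only. The 8 tested members with the core had slopes of -0.01 to 0.36 log2 per h with a median of 0.21. The 16 tested members with a promoter sequence but no core had slopes of -0.11 to 0.43 with a median of 0.13. The ranges overlap almost fully, and Ifit2, the member with the steepest slope, had no core in its window.

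Of 36 other genes of the pathway 35 were measured and 27 tested. The ligand genes Ifnb1, Ifna1, Ifna2, Ifna4 and Ifng were all below the signal filter. No other pathway gene was called for the trend (limma), 1 had an unadjusted p under 0.05 (the RNA sensor gene Ddx58, which encodes RIG-I, at 0.14 ± 0.04), and 16 of 27 slopes were positive with a median of 0.02. The receptor genes Ifnar1 and Ifnar2 had slopes of -0.003 and -0.001, and the kinase genes Jak1 and Tyk2 of -0.04 each. For the difference between the arms none was called.

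The time effect was called for 3 of the 27 other pathway genes, which were Socs3, a feedback inhibitor of cytokine receptors (adjusted p = 0.00113 by limma), Irf1 (0.0287) and Irf2bp2, a corepressor gene (0.0356). Socs3 read 9.19, 11.40, 13.05, 11.39, 11.25, 11.27 and 10.90 with aldosterone at 0.5, 1, 2, 3, 4, 5 and 12 h. It read 8.90, 11.21, 13.10, 12.44, 11.53, 10.90 and 10.68 in control, and 9.06 without an injection. Irf1, an interferon regulatory factor induced early by cytokines, peaked at 2 h in both arms, at 13.72 with aldosterone and 13.84 in control. At 3 h Irf1 was at 12.70 with aldosterone and 13.37 in control, and Socs3 was lower with aldosterone there as well. Irf2bp2 was not lower there, at 13.295 with aldosterone and 13.221 in control.

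Markers of cells that could carry interferon signals are given beside the trend. The sums of the 10 macrophage markers ran from 41818 to 60442 at 3 to 5 h and from 44147 to 84903 at 0.5 to 2 h. The 84903 was on the aldosterone array of 1 h, and the other early arrays gave 44147 to 57650. Of the 10 markers 6 had a positive slope (median 0.04, 0 called). Of these 10, 2 had an unadjusted p under 0.05, Mrc1 and C1qb, which rose by 0.15 and 0.11 log2 per h. Their unadjusted p was 0.0101 and 0.027 by limma (adjusted p = 0.784 and 0.859). The 5 markers of plasmacytoid dendritic cells, the main makers of type I interferon, summed to 10385 to 13941 at 3 to 5 h and 9829 to 14234 at 0.5 to 2 h. Most of this sum is Tcf4, with a mean deposited signal of 8310, against 1788 for Klk1 and 1131 for Irf8. Of these 3 tested markers 1 had a positive slope (median -0.07, 0 called). Siglech and Ccr9, the most specific of the 5, were below the signal filter. The neutrophil markers (4 of 6 tested) had no positive slope and summed to 3806 to 8274 at 3 to 5 h, against 5749 to 42000 at 0.5 to 2 h. The 1 h arrays, which also held the lung markers, gave 42000 with aldosterone and 15496 in control. The other early arrays gave 5749 to 7412. The time effect was called for S100a8 and S100a9, with adjusted p of 0.013 and 0.021 (limma). Of the T and B cell markers 2 of 9 were tested. The 5 endothelial markers, all tested, summed to 25058 to 36772 at 3 to 5 h and 27808 to 40769 at 0.5 to 2 h, and 1 of 5 had a positive slope (median -0.06, 0 called). Cdh5 and Tie1, at -0.12 and -0.14 log2 per h, had unadjusted p of 0.0195 and 0.0386 by limma (adjusted p = 0.847 and 0.868). The part of these cells in the members' levels was not tested.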

How the data were processed

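Total RNA of whole hearts was labelled with biotin and hybridised to Affymetrix mouse arrays of 45101 probe sets. The authors deposited 1 linear signal (unit intensity) per probe set and array, and the submitters' processing notes name GCOS 1.2. The 2% trimmed mean of each array was 1500. A probe set takes its gene from the platform annotation, which gives a single symbol for 34958 of them.

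A constant of 167.8 (the signals' 25th percentile) was added before taking log2, followed by quantile normalization. The tests were those of limma 3.58.1 (R 4.3.3), with a variance trend and Benjamini-Hochberg adjustment over the 22286 tested probe sets, and calls had an adjusted p under 0.05. Trend and window fits over both arms used the mean of the arms at each time. In each comparison the members called and the 5 with the smallest p were named with their statistics. The members and lists were chosen with earlier results of these data known. The steps were tested on simulated data. Alternatives were other scalings, pseudocounts, filters and variance models, the Gapdh ratio, scan day and block settings, and leaving out each pair of arrays. Figures used matplotlib 3.10.9 in Python 3.11.15.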

Additional observations from a re-analysis of the deposited data

Results flagged for a closer look

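Among 60 groups of 7 arrays (30 members in each arm), 3 values lay far from the rest of their group by Dixon's 95% criterion, which chance alone gives in about 1 group in 20. Herc6 read 11.43 on the aldosterone array of 0.5 h, where the next highest aldosterone value was 10.85, and 11.96 on the control array of 3 h, where the next highest control value was 11.05. Sp110 read 9.24 on the control array of 12 h, where the next lowest control value was 10.16.

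Isg20 moved in opposite directions in the arms between the earlier and the later array of each scan day, with a mean change in the aldosterone arm that exceeded that in the control arm by 1.08 (log2). Its difference between the arms had one sign at 0.5, 1 and 2 h and the other at 3, 4 and 5 h. The change between the windows, 1.08 ± 0.22, is the same quantity from the same arrays and not a second observation. It was not called (adjusted p = 0.737 by limma).

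The uninjected array, which enters no test, lay above all 7 control arrays for Sp110 (11.16 against at most 10.57), Lgals3bp (12.31 against at most 12.22) and Adar (12.06 against at most 11.90).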

How the results depend on the processing

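No member was called under any alternative for the difference between the arms (over 7 times, in either window, between windows, or between slopes), for 12 h minus 3 to 5 h, or for the trend of 1 arm. The count called for the time effect, 2, was 6 with median scaling, 1 with a pseudocount of 32 and 1 without a filter. It was 0 without the variance trend, 0 with Gapdh as a covariate and 0 with scan day as a block. Leaving out 1 pair gave 0 to 6: 0 when the 0.5, 4 or 5 h arrays were dropped, 1 for those of 1 or 12 h, 5 for those of 2 h and 6 for those of 3 h. The trend over both arms, with 0 called, had 2 calls with Gapdh as a covariate (Ifit2 and Cmpk2, adjusted p 0.0312 and 0.0384 by limma) and 3 with arrays counted as separate. The difference of 3 to 5 h minus 0.5 to 2 h, with 0 called, had 1 with arrays counted as separate (Ifit3, adjusted p = 0.0493 by limma). The cause was not tested, except that counting arrays as separate raises the number of values by construction.

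Across the alternatives with 30 members the trend had a positive slope for 25 to 28 of them. It was positive for 30 of 33 without a filter and for 25 of 27 with the stricter filter. The median slope was 0.14 to 0.20 across all alternatives. Under median scaling 68.9% of all probe sets had a positive difference between the arms. Without a replicate block for time the count for the arms stayed at 0. The numbers pair the arms because both arrays of a time share the hour and scan day. At 3 h, 5 of 30 members were higher with aldosterone under the other scalings and pseudocount, 7 of 33 without a filter and 5 of 27 with the stricter filter. At 12 h these counts were 25 or 26 of 30, 26 of 33 and 23 of 27. With 1 array per arm and time, single pairs have no error of their own.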
